A study of Mus musculus with 9 samples.

Results

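The genes of the major histocompatibility complex (MHC) and of antigen presentation were followed in Hepa1-6, a mouse hepatoma cell line, after exposure to either of 2 pleuromutilin antibiotics. The 57 genes were taken by name from the 56748 genes of the count table. They were every gene whose symbol starts with H2-, pseudogenes included, together with B2m, Tap1, Tap2, Tapbp, Tapbpl, Psmb8, Psmb9, Psmb10, Erap1, Cd74, Ciita and Nlrc5. Of these, 32 belonged to class I, 14 to class II (Cd74 and Ciita among them) and 10 to peptide processing and loading, and 1, H2-Ke6, carries the H2- name but encodes no MHC chain. The mouse MHC lies on chromosome 17, which held 50 of the 57. Gene positions below are those of the authors' files, in which 0 of the 57 had their GRCm38 start and end although the labels name mm10, so the build is uncertain.

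The study asked how the drugs act on hepatocellular carcinoma cells. Total RNA was sequenced from 3 control libraries, 3 libraries of cells given 37 µg/ml lefamulin and 3 of cells given 37 µg/ml tiamulin for 2 days, all in DMEM with fetal bovine serum and penicillin-streptomycin. The labels list the controls as having had no treatment, whereas the study's methods describe vehicle. Both drugs share the pleuromutilin core and differ in the side chain attached to it. All 9 libraries came from this line, a tumor line in culture, and nothing in the labels shows that the 3 libraries of a group were separate cultures, so p-values measure only the spread between libraries.

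Class I molecules pair a heavy chain with beta-2 microglobulin (B2m) and show peptides from inside the cell to CD8+ T cells. The peptides are cut by the proteasome, whose catalytic subunits can be exchanged for Psmb8, Psmb9 and Psmb10, are carried into the endoplasmic reticulum by Tap1 and Tap2, trimmed by Erap1 and loaded with the help of tapasin (Tapbp) and its relative TAPBPR (Tapbpl). Class II molecules show peptides from outside to CD4+ T cells, travel with the invariant chain (Cd74), are edited by H2-DM and are controlled by Ciita, and most tissues other than professional antigen-presenting cells and thymic epithelium make little of them. Nlrc5 is the corresponding activator of class I genes, and interferon gamma raises most genes of both pathways.

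Library totals ran from 15568887 to 18008105 counts. The hepatoma markers Alb, Afp, Trf, Krt8 and Krt18 were abundant, while Apoa2 had 8 to 40 counts and Ttr and Apoa1 stayed at 6 counts or fewer in each library. Of 15 blood-cell markers, 6 (Adgre1, Cd3e, Cd8a, Ms4a1, Tyrobp and Xcr1) had no count in any library. The summed blood-marker level was 13.0 to 13.3 CPM (counts scaled to library size) in control, 14.03 to 20.0 in lefamulin and 17.4 to 23.0 in tiamulin, most of it Cd68, and without Cd68 it was 4.42 to 5.25, 3.39 to 4.34 and 3.16 to 3.25 CPM. The library tiamulin 2 stood apart in how its deviation from its group followed GC content (Spearman's rho = 0.71 across 9584 genes, the largest of the 9 libraries). As deviations within a group sum to 0, tiamulin 1 and 3 had the opposite sign (-0.56 and -0.60), and control 1 and 2 also opposed each other (0.523 and -0.512), with smaller values in control 3 and the lefamulin libraries. Results that rest on tiamulin 2 are given with and without it.

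A count was present in at least 1 library for 44 of the 57 genes, and 25 passed the filter on low counts and were tested, 10 of class I, 5 of class II and all 10 of processing. Expression levels between genes were compared as FPKM, which scales fragments to gene length and library size. In control, B2m was the highest at 721 ± 39.6 FPKM (SD, n = 3), rank 33 of the 25761 genes above 0. H2-D1, a classical class I heavy chain, followed at 165 ± 9.70 FPKM and rank 227. No other member reached more than 20.3 FPKM, the level of the nonclassical class I gene H2-Q4 (SD 1.19). Tapbp (11.8 ± 0.961), H2-T23 (10.8 ± 0.470), Psmb10 (10.7 ± 0.383), Nlrc5 (9.38 ± 0.180) and H2-T22 (8.32 ± 0.981) came next, and the SDs of Tapbp, H2-T23 and Psmb10 overlapped. Of the 5 tested class II genes, H2-Eb1 stood at 2.55 ± 0.262 FPKM, and Cd74, H2-DMa, H2-DMb1 and H2-Ab1 were the lowest tested members, from 0.536 ± 0.329 FPKM for Cd74 down to 0.178 ± 0.0622 FPKM for H2-Ab1.

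**Figure D1:**
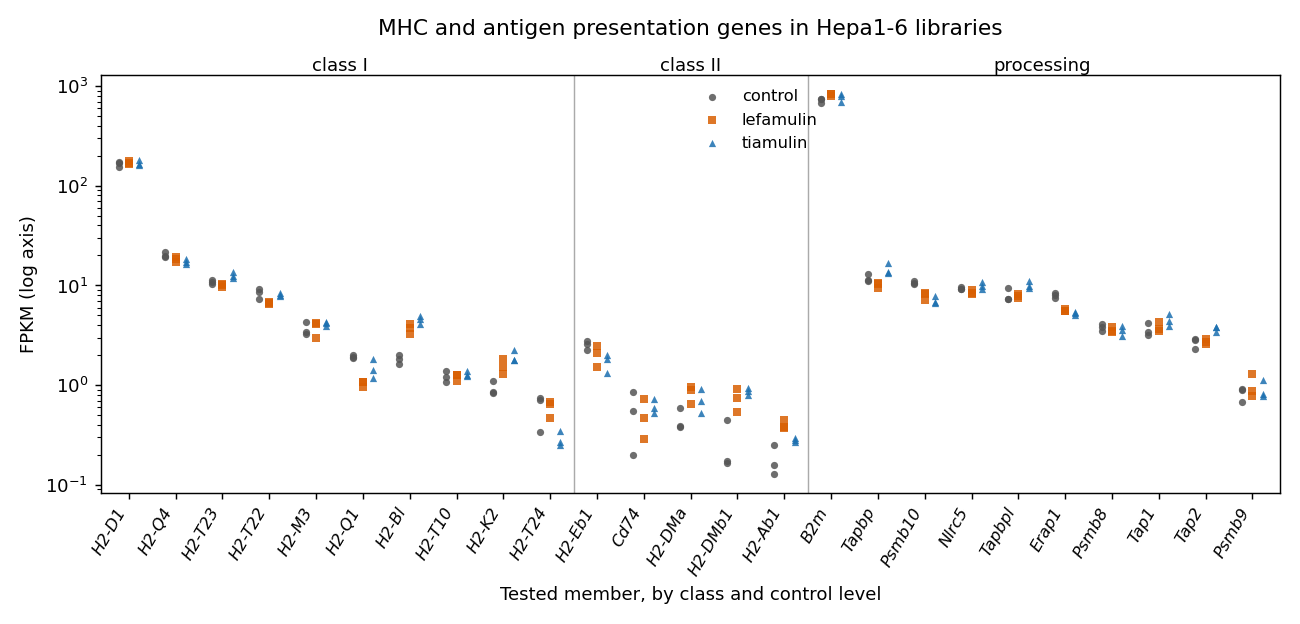
Level of the 25 tested members in each library, as FPKM on a log axis, with 3 points per group and members sorted within their class by control level. B2m and H2-D1 lie far above all other members in each of the 9 libraries, and the class II members lie at or under about 3 FPKM.

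The class I signal of these cells came mostly from H2-D1. Its counts were 7617, 6853 and 7976 in control, 7154, 7304 and 6998 under lefamulin and 7133, 7547 and 7195 under tiamulin, so the groups overlapped. H2-D1 made up 76.6% ± 0.338, 78.1% ± 0.337 and 76.5% ± 0.433 of the summed class I FPKM in control, lefamulin and tiamulin (SD, n = 3 each). Another classical heavy chain, H2-K1, had 0, 1 and 0 counts in control, 3, 0 and 0 under lefamulin and 0, 0 and 1 under tiamulin. In the 6 libraries with no count on H2-K1, H2-D1 stood 2657 to 3029 times above the FPKM that 3 counts on H2-K1 would give, where 3 counts are the upper limit that a count of 0 allows for counting error. In the reference transcripts (GENCODE M21), every 100-base window of H2-K1's longest transcript and 95.4% of those of H2-D1 occurred in no other gene. Of the 50-base windows, 91.9% of those of H2-K1 and 85.7% of those of H2-D1 were likewise found in no other gene. The read length and the treatment of reads with several matches are not given in the sources used here. Whether reads of H2-K1 were lost was not tested.

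The promoters of H2-D1, H2-K1 and H2-Q6 are shown because they share an element while the genes' counts differ. The sequences are RefSeq's, on GRCm38.p6, from the reference mouse and not from Hepa1-6, and cover the 250 bases before the annotated start, with the first start taken for H2-K1, which has 2. Capitals mark a palindromic NF-kB site, GGGGA and TCCCC with 1 base between them, and in B2m the core of an interferon-stimulated response element (ISRE), GAAA repeated with 2 bases between.
H2-D1, chr17:35262844-35263093, plus strand: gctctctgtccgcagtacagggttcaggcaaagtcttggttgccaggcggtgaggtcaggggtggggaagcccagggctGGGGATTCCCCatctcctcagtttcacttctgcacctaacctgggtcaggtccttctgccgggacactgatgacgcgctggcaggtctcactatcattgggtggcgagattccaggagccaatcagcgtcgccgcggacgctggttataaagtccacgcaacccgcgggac
H2-K1, chr17:34000348-34000597, minus strand: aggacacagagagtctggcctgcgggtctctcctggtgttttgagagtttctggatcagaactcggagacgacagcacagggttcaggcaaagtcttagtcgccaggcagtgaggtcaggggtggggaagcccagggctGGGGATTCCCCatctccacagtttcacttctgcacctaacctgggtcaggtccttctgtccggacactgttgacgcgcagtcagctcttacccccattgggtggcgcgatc
H2-Q6, chr17:35424600-35424849, plus strand: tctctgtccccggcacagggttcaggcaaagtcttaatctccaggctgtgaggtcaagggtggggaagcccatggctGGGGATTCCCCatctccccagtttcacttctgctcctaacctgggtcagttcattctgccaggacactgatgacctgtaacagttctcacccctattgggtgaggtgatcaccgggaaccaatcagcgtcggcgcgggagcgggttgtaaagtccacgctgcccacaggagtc
B2m, chr2:122147437-122147686, plus strand: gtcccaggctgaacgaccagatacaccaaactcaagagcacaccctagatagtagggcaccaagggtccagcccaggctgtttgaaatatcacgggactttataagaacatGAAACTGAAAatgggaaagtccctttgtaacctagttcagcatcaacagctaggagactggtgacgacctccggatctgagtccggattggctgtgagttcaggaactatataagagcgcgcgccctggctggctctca
Promoter windows of 250 bases before to 50 bases after the start were listed for 39 of the member genes and for 32851 starts in all. The NF-kB site was in 16 of these windows (0.0487%) and in 3 of the 39 member genes, the H2-D1, H2-K1 and H2-Q6 shown. Its first base lay 171, 111 and 173 bases before the start, respectively. The windows of H2-K1 and H2-D1 were identical at 206 of 228 aligned columns (90.4%), and those of H2-Q6 and H2-D1 at 242 of 299 (80.9%). H2-Q6 had at most 7 counts in any library. The repeat of GAAA, searched on both strands, was in 1131 windows (3.44%) and in 4 of the 39 member genes, B2m, Erap1, H2-T22 and H2-T23. CCAAT, also on both strands, was in 33 of the 39, against 37.4% of all windows. A match describes these letters only. Variants of these elements with other letters were not searched, so a gene without a match is not shown to lack the element.

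Each drug was then compared with control across all 14510 tested genes. At an adjusted p below 0.05 (quasi-likelihood test of edgeR, Benjamini-Hochberg adjusted), lefamulin changed 7 of the 25 tested members, 3 higher and 4 lower, where 13.1% of all genes passed (7.09% higher and 6.0% lower). Tiamulin changed 8, of which 6 were higher and 2 lower, where 16.4% of all genes passed (9.08% higher and 7.34% lower). The median log2(fold change) of the 25 was -0.02 under lefamulin and 0.15 under tiamulin, against -0.002 and 0.003 for all genes. The groups did not overlap in CPM for 13 and 14 members, against 37.6% and 32.3% of all genes. Both comparisons use the same 3 control libraries. Beside 9 fits that each leave out a library, 10 alternatives in tool, filter, scaling or design were run, and where the call of a member changes in any of them this is said with the gene. With the study's further threshold of an absolute log2(fold change) above 1, H2-Bl and H2-DMb1 passed under lefamulin (1.51% of all genes did, 0.979% upward), and these and H2-K2 passed under tiamulin (1.78% did, 1.05% upward).

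**Figure D2:**
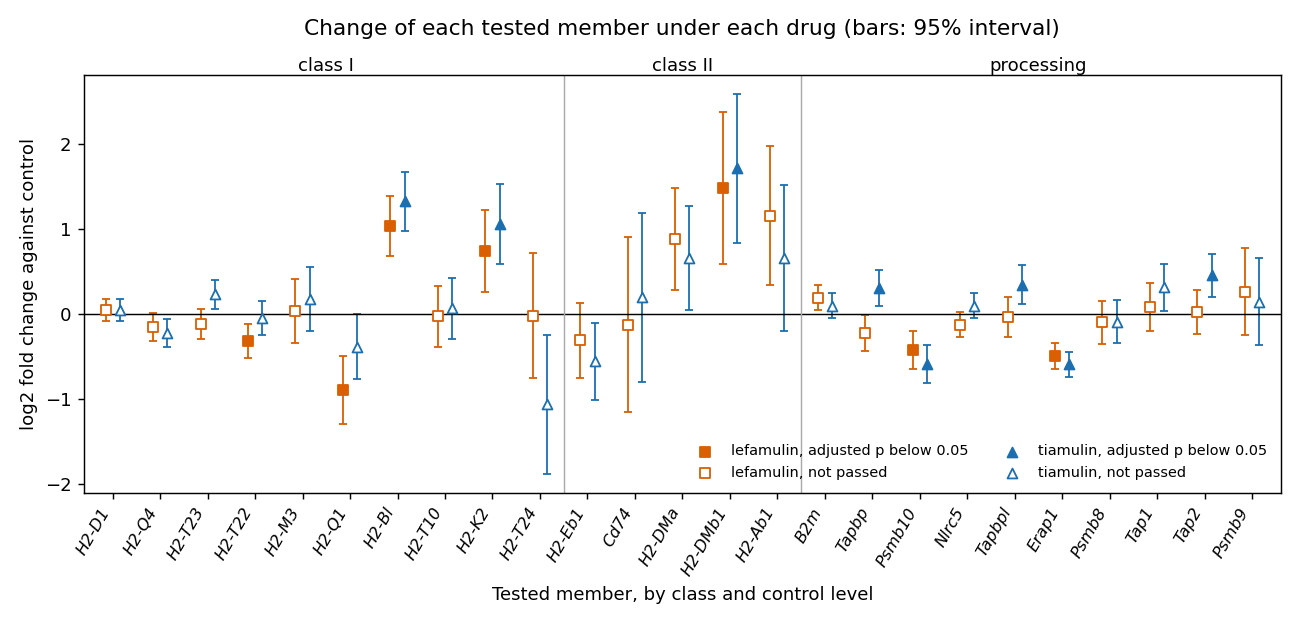
Log2(fold change) against control of the 25 tested members under lefamulin (squares) and tiamulin (triangles), with unadjusted 95% intervals; filled symbols have an adjusted p below 0.05. H2-D1 lies at 0.05 under each drug, H2-Bl, H2-K2 and H2-DMb1 lie above 0 and Erap1 and Psmb10 below 0 under both.

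Among class I heavy chains, the abundant H2-D1 (ENSMUSG00000073411, chr17:35481706-35486475, plus strand) did not pass the test in any comparison. The difference was 0.05 on the log2 scale under each drug (SE 0.06 each), with adjusted p values of 0.672 and 0.635. The 95% intervals were -0.08 to 0.17 and -0.08 to 0.18. The calls in class I were in genes of lower level. H2-Bl (ENSMUSG00000073406, chr17:36391007-36395115, minus strand), a class I gene first described in the blastocyst, had 59, 53 and 49 counts in control, 110, 105 and 91 under lefamulin and 115, 134 and 132 under tiamulin. All treated libraries exceeded all controls, and H2-Bl was 2.05-fold higher under lefamulin (SE 0.17 on the log2 scale, adjusted p = 0.00083) and 2.505-fold higher under tiamulin (SE 0.16, adjusted p = 7.07e-05). In FPKM it reached 3.73 ± 0.426 and 4.56 ± 0.428, so even then it amounted to little beside H2-D1. Of its 100-base windows, 99.6% were its own among reference transcripts.

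H2-K2 (ENSMUSG00000067203, chr17:34193608-34197811, minus strand), annotated as a transcribed pseudogene beside H2-K1, had 29, 37 and 29 counts in control, 40, 50 and 58 under lefamulin and 58, 70 and 59 under tiamulin. It rose 1.68-fold under lefamulin (log2 0.74, SE 0.22, adjusted p = 0.0426) and 2.08-fold under tiamulin (log2 1.06, SE 0.22, adjusted p = 0.0042). The groups did not overlap with control, but the lefamulin call was lost in 5 of the 9 fits that leave out a library (adjusted p up to 0.156 without lefamulin 3) and in 4 of the 10 alternatives, DESeq2 (0.0741), no filter (0.0596), the replicate block (0.0653) and limma on log2(FPKM + 1) (0.0531). The tiamulin call was kept in all of these fits. Of its 100-base windows, 98.0% were its own.

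H2-Q1 (ENSMUSG00000079507, chr17:35539381-35544075, plus strand), a nonclassical gene of the Q region, moved the other way. It had 93, 98 and 99 counts in control, 43, 51 and 51 under lefamulin and 87, 54 and 69 under tiamulin. It fell to 54.0% of control under lefamulin (log2 -0.89, SE 0.19, adjusted p = 0.00599) and stood at 76.8% under tiamulin, which did not pass (log2 -0.38, SE 0.18, adjusted p = 0.169). The 2 drugs were not shown to differ on H2-Q1 (tiamulin against lefamulin log2 0.51, 95% interval 0.10 to 0.92, adjusted p = 0.144), although the 3 lefamulin libraries were all below the 3 tiamulin libraries.

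H2-T22 (ENSMUSG00000056116, chr17:36348020-36353639, minus strand), a nonclassical molecule recognized by some gamma delta T cells, had 545, 427 and 525 counts in control, 366, 380 and 364 under lefamulin and 439, 443 and 486 under tiamulin. Lefamulin lowered it to 80.1% of control (log2 -0.32, SE 0.09, adjusted p = 0.0385), while tiamulin left it at 96.9% (adjusted p = 0.793), and the difference between the drugs did not pass (log2 0.28, SE 0.09, adjusted p = 0.109). Leaving out control 1, control 3 or any lefamulin library ended the lefamulin call (adjusted p up to 0.167), as did the replicate block (0.0749). With GC and length offsets the drugs differed (0.0377). Only 61.9% of its 100-base windows were its own, the rest being shared with H2-T10 and other gene models, so its counts are uncertain.

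H2-T23 (ENSMUSG00000067212, chr17:36340665-36343747, minus strand), the gene of Qa-1 that presents leader peptides of other class I chains to NKG2 receptors, had 549, 515 and 586 counts in control, 462, 461 and 486 under lefamulin and 574, 632 and 619 under tiamulin. Neither drug passed against control (log2 -0.12, adjusted p = 0.385, and log2 0.23, adjusted p = 0.0613), although tiamulin passed in 4 of the 10 alternatives, with adjusted p values of 0.0277 and 0.0369 with GC and length offsets without and with the block and 0.0452 and 0.0455 with limma. The 2 drugs lay on opposite sides of control. H2-T23 was 1.27-fold higher under tiamulin than under lefamulin (log2 0.35, SE 0.08, adjusted p = 0.0243). Without lefamulin 1, 2 or 3 the adjusted p rose above the threshold (up to 0.12) at a log2 difference of 0.32 to 0.37, and it did so too with the 2 groups alone (0.067) and with the replicate block (0.074). Without tiamulin 2 the call was kept (log2 0.30, adjusted p = 0.0212).

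The remaining tested class I genes, H2-Q4, H2-M3, H2-T10 and H2-T24, passed in neither comparison with control. Of the 100-base windows of H2-Q4 85.4% were its own, and of those of H2-T10 70.3%. H2-Q4 had 977, 866 and 934 counts in control, 791, 796 and 730 under lefamulin and 746, 760 and 736 under tiamulin (tiamulin log2 -0.22, SE 0.08, adjusted p = 0.0587, and 0.0122 without tiamulin 2). The tiamulin value also passed with at least 10 counts in every library (0.0485) and with the offsets without and with the block (0.00519 and 0.00746). H2-T24 had 13, 27 and 29 counts in control, 22, 17 and 24 under lefamulin and 9, 12 and 10 under tiamulin. All 3 tiamulin libraries were below the others (log2 -1.06, SE 0.38, adjusted p = 0.074, and 0.0307 without control 1). H2-M3, which presents formylated peptides of bacteria and mitochondria, had log2(fold changes) of 0.04 and 0.18 with 95% intervals of -0.34 to 0.41 and -0.20 to 0.55. The 22 untested class I genes had at most 8 counts in a library except H2-M5, which had 16, 7 and 10 in control, 5, 12 and 8 under lefamulin and 6, 6 and 7 under tiamulin. Summed over all 32 genes, class I stood at 216 ± 11.9 FPKM in control, 218 ± 6.77 in lefamulin and 224 ± 12.9 in tiamulin, a difference within the SD of the groups. H2-Ke6, outside both classes, had 1, 1 and 0 counts in control, 4, 4 and 3 under lefamulin and none under tiamulin, too few to test, and shares 96.3% of its 50-base windows with another gene model.

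Class II transcripts were scarce and incomplete. H2-Aa, H2-Ea and H2-Oa had no count in any library, and H2-Ob had 4 counts in control 3 and none elsewhere. H2-DMb2 and H2-Eb2 had 1 count each over the 9 libraries, and the pseudogenes H2-Pa and H2-Pb had at most 4 in a library. The beta chain H2-Ab1 was counted without its alpha chain partner, with 7, 11 and 6 counts in control, 18, 16 and 16 under lefamulin and 12, 11 and 13 under tiamulin. The lefamulin libraries were all above the others, but the difference did not pass (2.23-fold, log2 1.16, SE 0.38, adjusted p = 0.0605). H2-Eb1 had 77, 86 and 98 counts in control, 65, 81 and 49 under lefamulin and 43, 63 and 61 under tiamulin, with an adjusted p of 0.37 under lefamulin and 0.089 under tiamulin (0.0352 without tiamulin 2, log2 -0.68, and 0.0414 and 0.0461 with the offsets without and with the block). Ciita, the master activator, had 0, 0 and 1 counts in control, 0, 2 and 0 under lefamulin and 8, 0 and 0 under tiamulin. Cd74, which class II cells usually carry in great excess, had only 25, 16 and 6, then 19, 13 and 8, then 20, 16 and 15 counts, and passed in no comparison (adjusted p = 0.903 under lefamulin and 0.822 under tiamulin).

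Of the 5 tested class II genes, only H2-DMb1 passed the test. H2-DMb1 (ENSMUSG00000079547, chr17:34372046-34379204, plus strand), the beta chain of the peptide editor H2-DM, had counts of 13, 5 and 5 in control, of 24, 21 and 15 with lefamulin and of 22, 25 and 25 with tiamulin. The treated libraries were all above the controls. It was 2.79-fold higher under lefamulin (log2 1.48, SE 0.42, adjusted p = 0.0315) and 3.28-fold higher under tiamulin (log2 1.71, SE 0.41, adjusted p = 0.0102), from 0.261 ± 0.159 FPKM in control to 0.733 ± 0.182 and 0.863 ± 0.0703. The control counts are few, and both calls depended on the controls: without control 3 the adjusted p was 0.139 under lefamulin and 0.0602 under tiamulin, without control 2 both calls were lost as well, and the lefamulin call was also lost without lefamulin 1 or 2. Of its 100-base windows, 86.3% were its own and the others were shared with H2-DMb2, its paralog. The alpha chain H2-DMa had 23, 35 and 24 counts in control, 35, 52 and 54 under lefamulin and 40, 51 and 31 under tiamulin. It was 1.84-fold higher under lefamulin, just beyond the threshold (log2 0.88, SE 0.28, adjusted p = 0.0509), and passed without control 2, tiamulin 2 or tiamulin 3 (0.0185 without tiamulin 2). It also passed in 5 of the 8 other alternatives that held it, with adjusted p values of 0.034 without a filter, 0.0454 with at least 10 counts in every library, 0.0209 with the 2 groups alone and 0.0197 and 0.0219 with GC and length offsets without and with the block. Under tiamulin it was 1.58-fold higher (adjusted p = 0.133). Beside these values, 6 of the 15 blood-cell markers were tested. Ptprc (5, 0 and 3 counts in control, 12, 15 and 15 under lefamulin and 9, 9 and 16 under tiamulin) and Cd68 (138 to 153, 164 to 260 and 234 to 316 counts) rose under both drugs, and Csf1r (40 to 58, 16 to 18 and 12 to 26 counts) fell under both. Cd79a, Fcer1g and Lyz2 did not pass, with at most 23 counts in a library. The endothelial marker Pecam1 rose under both drugs as well (log2 1.29 and 1.39), and the 4 endothelial markers summed to 1.27 to 1.73 CPM in control, 2.57 to 4.03 in lefamulin and 3.04 to 4.50 in tiamulin. Most of this sum was Pecam1, as Cdh5, Kdr and Tek had at most 8 counts in a library and were not tested. Of the 4 fibroblast and stellate markers, Dcn, at 1534 ± 47.3 CPM in control, fell under both drugs (log2 -0.42, adjusted p = 8.99e-05, and log2 -0.49, adjusted p = 1.58e-05), and the other 3 had at most 12 counts in a library and did not pass or were not tested. Their summed level was 1479 to 1565 CPM in control, 1128 to 1182 in lefamulin and 1034 to 1125 in tiamulin. Of the 8 hepatoma markers, 6 were tested. Alb fell under both drugs (log2 -0.24 and -0.50) and Afp under tiamulin (log2 -0.81). Trf rose under lefamulin (log2 0.27) and Krt18 under tiamulin (log2 0.375), and Krt8 and Apoa2 passed under neither drug. The part of all these markers in the class II values was not tested. Summed over the 14 genes, class II stood at 4.15 ± 0.291 FPKM in control, 4.55 ± 0.734 in lefamulin and 4.45 ± 0.32 in tiamulin.

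**Figure D3:**
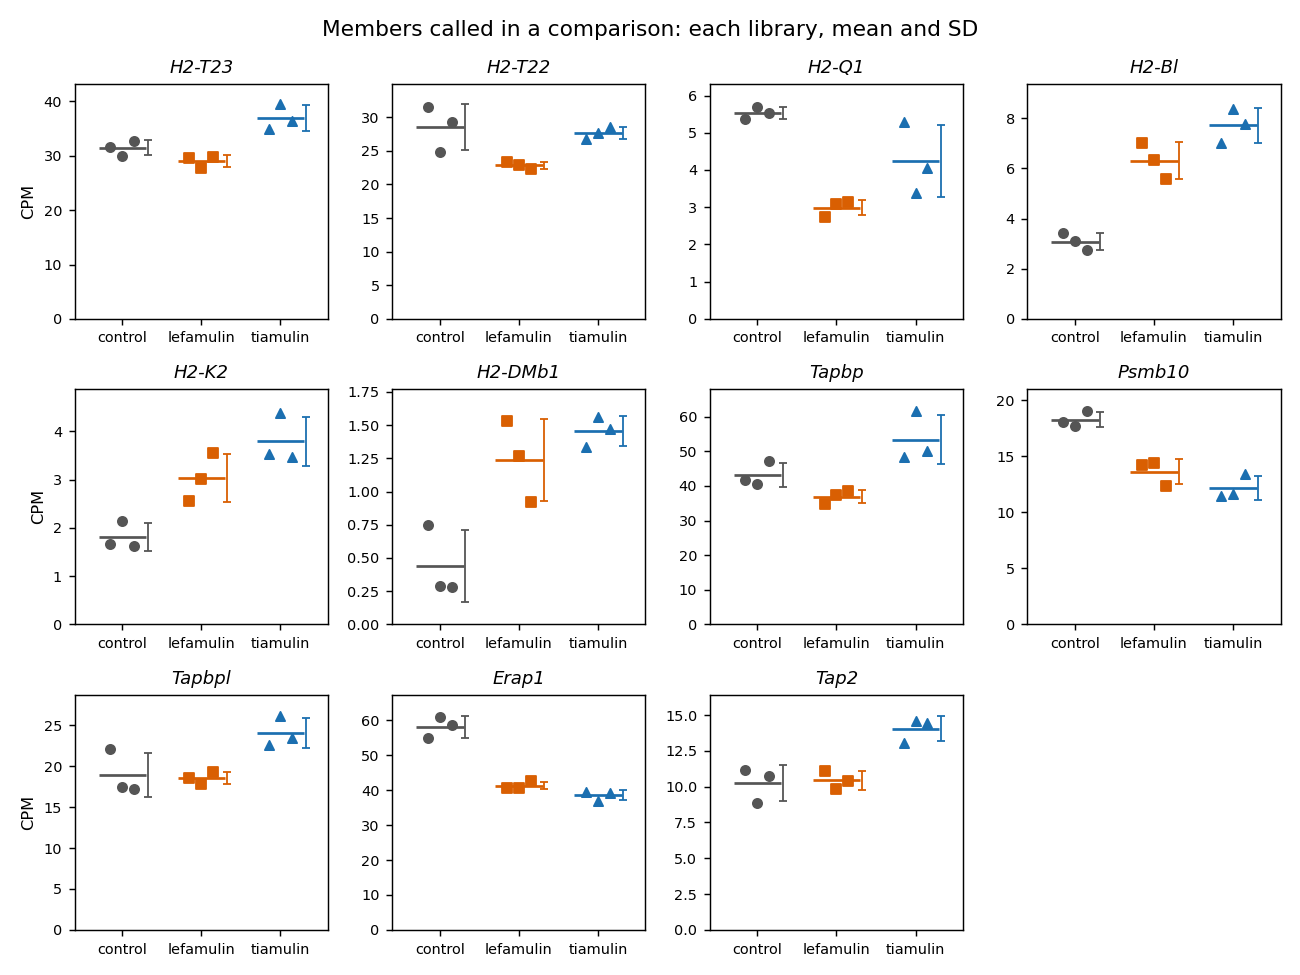
CPM in each library of the 11 members called in any of the 3 comparisons, with the mean (line) and SD (bar) of each group of 3 on axes that start at 0. H2-Bl, H2-K2 and H2-DMb1 stand above control and Erap1 and Psmb10 below control in all 6 treated libraries.

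In peptide processing, 2 genes fell under both drugs. Erap1 (ENSMUSG00000021583, chr13:74787687-74841320, plus strand), the aminopeptidase that trims peptides to class I length, had 950, 1046 and 1050 counts in control, 637, 675 and 694 under lefamulin and 649, 592 and 666 under tiamulin. It fell to 71.1% of control under lefamulin (log2 -0.49, SE 0.07, adjusted p = 0.00036) and to 66.4% under tiamulin (log2 -0.59, SE 0.07, adjusted p = 5.76e-05). No treated library reached the lowest control, and both calls were kept in all 9 fits without a library and all 10 other alternatives. Erap1 shares transcript sequence with its neighbour Cast, and 86.7% of its 100-base windows were its own.

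Psmb10 (ENSMUSG00000031897, chr8:106662367-106665076, minus strand), the inducible subunit MECL-1, had 313, 305 and 341 counts in control, 222, 239 and 201 under lefamulin and 188, 186 and 228 under tiamulin. It fell to 74.5% of control under lefamulin (log2 -0.42, SE 0.10, adjusted p = 0.016, and 0.0816 without lefamulin 3) and to 66.5% under tiamulin (log2 -0.59, SE 0.11, adjusted p = 0.00157). The lefamulin call was lost without control 3 too. Psmb8 (LMP7) had 226, 238 and 212 counts in control, 202, 196 and 188 under lefamulin and 222, 169 and 209 under tiamulin, with log2(fold changes) of -0.10 and -0.09 and adjusted p values of 0.656 and 0.669. Psmb9 (LMP2) had 43 to 60, 47 to 75 and 46 to 69 counts and did not pass (adjusted p = 0.528 and 0.735). Summed, the 3 inducible subunits stood at 15.3 ± 0.212 FPKM in control, 12.5 ± 1.02 in lefamulin and 11.6 ± 0.770 in tiamulin, or 81.6% and 75.6% of control, with no overlap. This sum follows Psmb10, the highest of the 3. Relative to the constitutive subunit that each replaces, Psmb10 stood at 31.1% ± 3.17 of the FPKM of Psmb7 in control, 23.3% ± 1.91 in lefamulin and 23.7% ± 1.18 in tiamulin, Psmb8 at 4.38% ± 0.377, 4.57% ± 0.113 and 4.98% ± 0.295 of Psmb5, and Psmb9 at 1.31% ± 0.265, 1.67% ± 0.378 and 1.62% ± 0.353 of Psmb6. These ratios are a description without a test.

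Of the transporter and loading genes, Tap2, Tapbp and Tapbpl rose under tiamulin, and under lefamulin none of these or Tap1 passed in the fit to all 9 libraries. Tap2 (ENSMUSG00000024339, chr17:34422501-34435295, plus strand) had 193, 152 and 193 counts in control, 174, 163 and 170 under lefamulin and 215, 234 and 246 under tiamulin. It rose 1.37-fold under tiamulin (log2 0.45, SE 0.12, adjusted p = 0.0168) and passed in 8 of the 9 fits without a library, failing without control 2 (adjusted p = 0.0801). Its log2(fold change) under lefamulin was 0.03 (adjusted p = 0.918), and the difference between the drugs fell just short (log2 0.43, SE 0.12, adjusted p = 0.0537). It passed in 4 of the 10 alternatives, with DESeq2 (0.0451), without a filter (0.0389) and with the offsets without and with the block (0.0374 and 0.0444), and without control 2 (0.0499). Tap1, the partner of Tap2 in the transporter, had 402, 298 and 340 counts in control, 371, 321 and 326 under lefamulin and 354, 456 and 410 under tiamulin, with overlapping groups (tiamulin log2 0.32, SE 0.13, adjusted p = 0.115). This passed without a filter (0.0384), with the offsets (0.0464) and without control 1 (0.0482). Tap1 and Psmb9 overlap at their starts on opposite strands, and whether the counting used strand is not given in the sources used here.

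Tapbp (ENSMUSG00000024308, chr17:34134873-34148266, plus strand), the bridge between the transporter and empty class I molecules, had 722, 697 and 845 counts in control, 545, 620 and 631 under lefamulin and 797, 986 and 850 under tiamulin. All lefamulin libraries were below and all tiamulin libraries above the controls in CPM. It rose 1.24-fold under tiamulin (log2 0.31, SE 0.10, adjusted p = 0.0434) and stood at 85.6% of control under lefamulin, which did not pass (log2 -0.22, SE 0.10, adjusted p = 0.155). The lefamulin value passed as lower without tiamulin 2 (log2 -0.23, adjusted p = 0.0219) and in 3 of the 10 other alternatives, the 2 groups alone (adjusted p = 0.0329) and the GC and length offsets without and with the replicate block (0.0475 and 0.0419). Tapbp was 1.44-fold higher under tiamulin than under lefamulin (log2 0.53, SE 0.10, adjusted p = 0.00735, and 0.000946 without tiamulin 2). Of its 100-base windows, 86.0% were its own, the rest being shared with other gene models. The call against control was lost in 6 of 9 fits without a library, tiamulin 2 among them (log2 0.19, adjusted p = 0.0804), and in 4 of the 10 alternatives, the 2 groups alone (0.0989), the replicate block (0.0705) and limma with either pseudocount (0.0796 and 0.079). The call between the drugs was kept in all 10 alternatives and in 8 of the 9 fits without a library, and without lefamulin 1 it was lost at a log2 difference of 0.49 (adjusted p = 0.0566). Tapbpl (ENSMUSG00000038213, chr6:125200896-125208823, minus strand) had 382, 300 and 309 counts in control, 291, 295 and 314 under lefamulin and 372, 418 and 398 under tiamulin. The rise under tiamulin (1.27-fold, log2 0.35, SE 0.11, adjusted p = 0.0402) was lost in 8 of the 9 such fits, all but that without control 1 (adjusted p up to 0.172, and 0.0588 without tiamulin 2), and also with the 2 groups alone (0.0917) and the replicate block (0.0769). Between the drugs Tapbpl did not pass (log2 0.38, adjusted p = 0.0614), but it did with DESeq2 (0.0406), without a filter (0.0215), with the offsets without and with the block (0.00924 and 0.0188) and without control 1 (0.0429).

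B2m (ENSMUSG00000060802, chr2:121978167-121983564, plus strand) had 10109, 11031 and 11537 counts in control, 11223, 12037 and 11270 under lefamulin and 11453, 9459 and 12172 under tiamulin. It did not pass under lefamulin (log2 0.19, SE 0.07, adjusted p = 0.0867) or tiamulin (log2 0.10, SE 0.07, adjusted p = 0.364). Without tiamulin 2, the lowest of the 3 tiamulin libraries, the adjusted p was 0.00052 under lefamulin (log2 0.19) and 0.0024 under tiamulin (log2 0.18). B2m also passed under lefamulin without a filter (0.0216), with the 2 groups alone (0.00134) and with the offsets (0.0278), and under tiamulin with the offsets without and with the block (0.00217 and 0.00654). Nlrc5 (ENSMUSG00000074151, chr8:95160984-95253900, plus strand), the class I activator, had 1416, 1360 and 1417 counts in control, 1210, 1202 and 1146 under lefamulin and 1406, 1484 and 1343 under tiamulin, and passed under neither drug (log2 -0.13, adjusted p = 0.265, and log2 0.10, adjusted p = 0.367). Between the drugs it did not pass (log2 0.23, adjusted p = 0.0773), but it did with DESeq2 (0.0467) and without tiamulin 3 (0.0361). The processing genes summed to 780 ± 38.4 FPKM in control, 873 ± 20.8 in lefamulin and 833 ± 71.4 in tiamulin, nearly all of it B2m, and the lefamulin sums lay above the controls. Summed without B2m, they stood at 58.8 ± 1.62 FPKM in control, 51.2 ± 1.15 in lefamulin and 59.9 ± 3.53 in tiamulin. The 3 lefamulin sums lay below all 6 others.

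**Figure D4:**
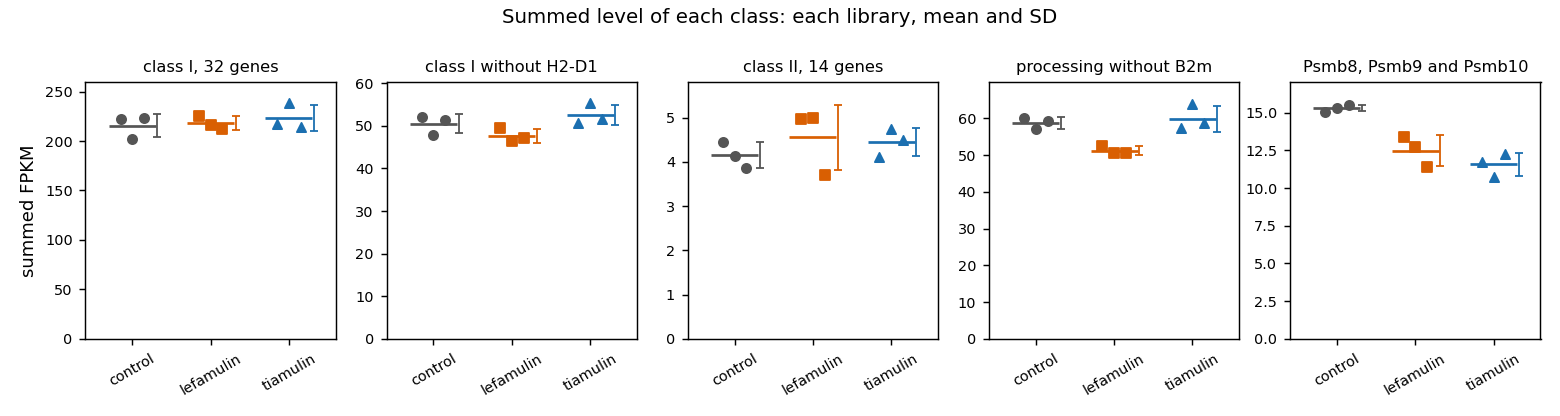
Summed FPKM in each library, with the mean and SD of each group of 3, for class I, class I without H2-D1, class II, processing without B2m, and Psmb8, Psmb9 and Psmb10 together, on axes that start at 0. Class I and class II overlap between groups, processing without B2m is lowest under lefamulin (51.2 ± 1.15), and the inducible proteasome subunits are highest in control (15.3 ± 0.212).

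The drugs were given at the same concentration and time and were compared directly, the only pair of drugs in the series. Over a longer exposure of this line, the study reports a lower half-maximal inhibitory concentration for lefamulin than for tiamulin. Equal concentration was thus not shown to be equal effect on growth, and the part of this in the differences was not tested. Of the 25 tested members, 2 were higher under tiamulin than under lefamulin, H2-T23 and Tapbp, and 0 were lower by edgeR, where 4.9% of all genes passed (2.85% higher and 2.05% lower). At an unadjusted p below 0.05, 7 were higher and 1, H2-T24, was lower, where 11.6% and 9.96% of all genes were. DESeq2 called 5 higher and 0 lower, where 5.55% and 3.9% of the genes with an adjusted p were called. None passed with an absolute log2(fold change) above 1 (0.227% of all genes did). The groups did not overlap for 10 of the 25, against 26.5% of all genes. For the members that moved under both drugs, the 95% interval of the log2 difference was -0.03 to 0.61 for H2-Bl, -0.13 to 0.76 for H2-K2, -0.53 to 1.00 for H2-DMb1, -0.25 to 0.06 for Erap1 and -0.40 to 0.07 for Psmb10. For the abundant chains it was -0.12 to 0.13 for H2-D1 and -0.24 to 0.06 for B2m. These intervals bound the difference between the drugs but do not show that they act alike. The median difference of the 25 was 0.14 on the log2 scale, against 0.003 for all genes.

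Genes that work with the members but were not among them were counted from a list of 58, of which 54 were in the table and 48 were tested. Of the 48, lefamulin raised 5 and lowered 6 and tiamulin raised 7 and lowered 6, shares to be read against the same 13.1% and 16.4%. In class II processing, the lysosomal proteases Ctsb (log2 0.20 and 0.42), Ctsd (0.31 and 0.40) and Ctsl (0.34 and 0.40) rose under both drugs. The adjusted p values under lefamulin were 0.028, 0.00783 and 0.000148, and those under tiamulin 0.000114, 0.00091 and 2.32e-05. Lgmn and Ctsb were also higher under tiamulin than under lefamulin (log2 0.39, adjusted p = 0.0158, and log2 0.22, adjusted p = 0.0306).

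Among the regulators, Irf1, a transcription factor of the interferon response, fell under both drugs (log2 -0.69, adjusted p = 0.000174, and log2 -0.47, adjusted p = 0.00247), with 684 to 793 counts in control, 413 to 439 under lefamulin and 471 to 542 under tiamulin. Jak2, a kinase of the interferon gamma receptor, fell as well (log2 -0.58, adjusted p = 3.93e-05, and log2 -0.75, adjusted p = 2.59e-06). Stat2 rose (log2 0.36, adjusted p = 0.04, and log2 0.66, adjusted p = 0.000712). Relb, an NF-kB subunit, was higher under tiamulin than under lefamulin (log2 0.45, adjusted p = 0.0191). In peptide supply and loading, Calr (log2 -0.29, adjusted p = 0.00784) and Psme3 (log2 -0.25, adjusted p = 0.026) were lower under tiamulin than under lefamulin. The class I-like gene Mr1, which presents vitamin B metabolites, rose under each (log2 0.58 both times, adjusted p = 0.000437 and 0.000307), and the 95% interval of its difference between the drugs was -0.17 to 0.18 on the log2 scale.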

How the data were processed

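Read length and counting options are not given in the sources used here. The submitters' processing notes name CASAVA 1.8, fastp, HISAT2 2.0.5, featureCounts 1.5.0-p3, DESeq2 1.20.0 and mm10. The authors deposited raw read counts per gene for the 9 libraries and FPKM for the same genes. The deposited FPKM equalled counts divided by gene length and a library total 0.99286 to 1.01331 times the count sum. Library totals were 15568887 to 18008105 counts, and intervals and limits cover counting error and library spread only. Here, edgeR 4.0.16 (R 4.3.3) was fitted to all 9 libraries with TMM factors (0.9936 to 1.009), its filter on low counts and a robust quasi-likelihood test, group only, with Benjamini-Hochberg adjustment over the 14510 tested genes. SE is the absolute log2(fold change) over the square root of F. All tested members were named, and the listed companion genes were named where called under both drugs or between them. 1 gene was left out of the blood-cell marker list, which then held 15, and is not reported here. Members and lists were chosen with earlier results of these data known. Alternatives were DESeq2 1.42.0, limma 3.58.1 on log2(FPKM + 1) and log2(FPKM + 0.1) of genes over 1 FPKM in 3 libraries, other filters and size factors, 2 groups alone, GC and length offsets from GENCODE M21 transcripts, the replicate block and leaving out each library. Motifs and sequences came from RefSeq (GRCm38.p6).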

Additional observations from a re-analysis of the deposited data

Results flagged for a closer look

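The direct comparison of the drugs, tiamulin against lefamulin, passed for 2 of the 25 tested members, both higher under tiamulin. Of all genes, 4.9% passed (2.85% higher and 2.05% lower). H2-T23, the gene of Qa-1, differed by 0.348 on the log2 scale, with 462, 461 and 486 counts under lefamulin and 574, 632 and 619 under tiamulin. The tapasin gene Tapbp differed by 0.53, with 545, 620 and 631 counts under lefamulin and 797, 986 and 850 under tiamulin. In both genes the 3 control libraries lay between the drugs in CPM. The H2-T23 difference did not pass when lefamulin 1, 2 or 3 was left out (log2 0.32 to 0.37), with the 2 groups alone (edgeR adjusted p = 0.067) or with the replicate block (0.074). That of Tapbp did not pass without lefamulin 1 (log2 0.49, adjusted p = 0.0566 by edgeR), and passed in the other 8 fits without a library and in all 10 alternatives.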

How the results depend on the processing

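No call of a member reversed its direction under the 10 alternatives or the 9 fits without a library. The counts that follow are of members only, without the share of all genes called in the same fit. They therefore show nothing particular to the members. Under lefamulin, the 3 members called higher became 5 with the 2 groups alone, 5 with GC and length offsets and 1 with limma on log2(FPKM + 1). The 2 past the fold threshold became 1 with at least 10 counts in every library and 0 with limma at either pseudocount. Under tiamulin, the 6 called higher became 9 with GC and length offsets and 8 with the block as well, the 2 called lower became 4 in both, and the 3 past the fold threshold became 0 with limma at a pseudocount of 1 and 1 at 0.1. Between the drugs, the 2 higher became 5 with DESeq2, 4 without a filter, 1 with the 2 groups alone, 1 with the replicate block, 5 with GC and length offsets and 4 with the block and offsets. Limma's FPKM filter left 19 members. With the block, lefamulin gave 2 higher and 3 lower and tiamulin 4 and 2. The deviations of same-numbered libraries had correlations of -0.193 to 0.0437, and those of differently numbered ones -0.122 to 0.19. With 3 libraries a group, whose deviations sum to 0, this cannot show whether the numbers pair libraries. Without 1 library, members called ranged from 1 to 5 higher, 2 to 5 lower and 0 to 2 past the fold threshold under lefamulin, from 2 to 6, 2 to 4 and 1 to 4 under tiamulin, and from 0 to 3 higher between the drugs. The lowest values came without control 3 or lefamulin 2 (lefamulin, 1 higher), control 3 or lefamulin 3 (lefamulin, 2 lower), control 2 (tiamulin, 2 higher) and lefamulin 1 (between drugs, 0), and the highest counts of lefamulin higher (5) and tiamulin lower (4) without tiamulin 2. The calls of H2-Bl and Erap1 under both drugs, H2-Q1 under lefamulin and H2-K2 and Psmb10 under tiamulin passed in every fit that held them. The causes were not tested. Members under about 30 counts a library have wide intervals.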
